A study of Mus musculus with 48 samples.

Results

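The genes of cholesterol synthesis described here are *Hmgcs1*, *Idi1*, *Fdft1*, *Sqle*, *Lss*, *Cyp51*, *Dhcr7* and *Insig1*. They were taken by symbol from a table of 24444 genes measured in the mouse cerebral cortex, and 7 of the 8 named genes were analysed. *Hmgcs1* was not analysed here. RNA-seq was done on the cortex of a single hemisphere from 48 mice of the C57BL/6J strain, with 6 wild-type (WT) and 6 Chd8 V986*/+ mice per age. The ages were embryonic day 14.5 (E14.5), 1 month, 6 months and 12 months. The mice were male. Chd8 V986*/+ mice, called mutant below, carry on 1 of the alleles of *Chd8* a stop codon introduced by genome editing in every cell from the embryo on, and the WT mice were their littermates. Expression is given as variance-stabilized (VST) values in log2 units, so that a difference of 1 is about a doubling in genes of high value. Close to the floor given next, a difference cannot be read as a fold change. The most frequent value, 2.14, was taken as the floor, and genes whose mean was at least 0.5 above it were tested. The depth behind the value of a single gene is unknown, so the spread between 6 mice gives the precision.

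Cells make cholesterol from acetyl units through a long chain of enzymes. Isopentenyl diphosphate isomerase (*Idi1*) supplies an early building block, squalene synthase (*Fdft1*) commits the chain to sterols, squalene epoxidase (*Sqle*) and lanosterol synthase (*Lss*) make the ring system, and lanosterol demethylase (*Cyp51*) and 7-dehydrocholesterol reductase (*Dhcr7*) act on the way from lanosterol to cholesterol. *Insig1* is not an enzyme of the chain but an endoplasmic reticulum protein that holds back the sterol-responsive transcription factors (SREBPs) when sterols are plentiful. The adult brain makes its own cholesterol, because lipoproteins of the blood do not cross into it, and myelin holds a large share of it.

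*Chd8*, the mutated gene, was read in every mouse first. At E14.5 its value was 12.33 to 12.66 (median 12.60) in WT and 11.60 to 12.03 (median 11.98) in mutant mice. No mutant mouse overlapped a WT mouse at any of the 4 ages. Differences were tested with limma, a linear model that shares variance between genes, and a gene was called where its p, adjusted over all genes tested, was below 0.1. The mutant minus WT differences were −0.63 ± 0.08 (standard error, SE) in embryos and −0.67 ± 0.05, −0.64 ± 0.04 and −0.54 ± 0.06 in mice of 1, 6 and 12 months, with adjusted p = 0.026, 3e-06, 1.1e-07 and 0.0026 in limma. At E14.5 this call was lost without a trend in the variance, without the filter on low values, and when WT replicate 2, 4 or 5 or mutant replicate 4 was left out, with differences of −0.61 to −0.63.

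The upstream sequences of the members are shown because the members varied together between mice, as described further on. RefSeq promoter sequences of GRCm38.p6, a later build than the mm9 of the study, were matched by symbol for 5 of the 7 members, *Idi1*, *Lss*, *Cyp51*, *Dhcr7* and *Insig1*, with 7 start sites among them. The 250 bases before each start were searched on both strands for TCACNCCAC (a core of the sterol regulatory element), CCAAT (the NF-Y box), GGGCGG (the GC box) and CACGTG (an E-box). None of these motifs contains another. Of the windows, 3 are printed 5′ to 3′ along the gene, with the motifs found, on either strand, in capitals. They lie at chr13:8885356-8885605, chr10:76531355-76531604 and chr5:28071162-28071411, all on the plus strand.
Idi1: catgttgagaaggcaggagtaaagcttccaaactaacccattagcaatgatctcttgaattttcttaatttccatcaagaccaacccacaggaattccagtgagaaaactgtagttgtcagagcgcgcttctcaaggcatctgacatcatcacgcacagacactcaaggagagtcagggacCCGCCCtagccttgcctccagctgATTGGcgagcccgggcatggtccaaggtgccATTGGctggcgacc
Lss: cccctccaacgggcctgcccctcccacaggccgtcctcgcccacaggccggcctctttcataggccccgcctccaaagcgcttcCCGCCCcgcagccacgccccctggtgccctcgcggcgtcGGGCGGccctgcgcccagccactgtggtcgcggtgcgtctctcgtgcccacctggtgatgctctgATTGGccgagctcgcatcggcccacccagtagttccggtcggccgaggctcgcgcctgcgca
Insig1: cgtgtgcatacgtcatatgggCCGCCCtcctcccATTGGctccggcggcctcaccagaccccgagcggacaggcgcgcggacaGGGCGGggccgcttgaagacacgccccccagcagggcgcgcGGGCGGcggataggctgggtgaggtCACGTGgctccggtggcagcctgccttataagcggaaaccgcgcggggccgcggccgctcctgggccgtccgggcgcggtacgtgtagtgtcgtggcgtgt
CCAAT or its reverse complement was in 5 of the 7 windows, against 33.8% of 32851 promoters, and GGGCGG in 6 of 7, against 32.7%. CACGTG was in 2 of 7, those of *Insig1* and of a start of *Dhcr7* that lies wholly within annotated *Dhcr7* exons in mm9 (250 bases), against 6.02%, and TCACNCCAC in 0 of 7, against 1.05%. Another *Dhcr7* window has 137 exon bases, that of *Cyp51* 49, the remaining *Dhcr7* window 22 and the printed *Lss* window 17. Of the 7 windows 3 belong to *Dhcr7*, so they are not 7 separate genes, and the 32851 promoters were not limited to expressed genes. A match describes the letters in these windows. Neither the binding of a factor nor a link of the motifs to the shared variation of the members was tested. In the mm9 annotation the 7 members lie on 6 chromosomes, with *Cyp51* and *Insig1* both on chromosome 5. *Fdft1* overlaps *Ctsb*, and *Lss* overlaps 4930483K19Rik, on the opposite strand in each case, and the study's methods and labels differ on whether the libraries kept strand, so their values may hold reads of those neighbours.

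The comparison of ages asked how these genes change as the cortex grows and myelinates. The median change over the members was largest from E14.5 to 1 month, with *Sqle*, *Cyp51*, *Fdft1*, *Lss* and *Dhcr7* falling in both genotypes. Of the 7 members, 6 were called in WT mice, against 85.7% of 17285 genes, so being called at this step does not set the members apart. In WT mice 5 members fell, against 42.3% of all genes, and 1 rose, against 43.4%. In mutant mice 6 members were called, against 86.1% of 17227 genes, and all 6 fell, against 42.4%. The median difference over the members was −0.46 in WT and −0.61 in mutant mice, against 0.019 and 0.021 over all genes, which moved in both directions. The median size of the difference, whatever its sign, was 0.46 and 0.61 over the members, smaller than the 0.79 and 0.81 over all genes. In bulk tissue, fewer cells of a type and less RNA per cell cannot be told apart.

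*Sqle*, whose enzyme adds the oxygen from which the sterol ring is closed, had values of 11.76 to 12.07 (median 11.98) in WT embryos and 10.997 to 11.12 (median 11.04) in WT mice of 1 month. In mutant mice it went from 11.80 to 12.03 (median 11.93) to 10.83 to 11.06 (median 10.98). The ages did not overlap in either genotype. The difference was −0.89 ± 0.06 (SE) in WT and −0.95 ± 0.05 in mutant mice (adjusted p = 3.1e-10 and 3e-11), that is, to 0.54 and 0.52 of the embryonic value. *Cyp51*, a cytochrome P450 that removes a methyl group from lanosterol, lay between 12.02 and 12.32 (median 12.14) in WT embryos and between 11.32 and 11.39 (median 11.34) at 1 month. It fell by 0.80 ± 0.05 in WT and by 0.90 ± 0.06 in mutant mice (adjusted p = 3.4e-10 and 2.9e-10), again with no overlap of the ages. *Fdft1* fell by 0.57 ± 0.04 in WT and 0.61 ± 0.05 in mutant mice. For *Lss* the differences were −0.46 ± 0.06 and −0.62 ± 0.06, and for *Dhcr7* −0.25 ± 0.06 and −0.36 ± 0.06. The share of all genes whose values did not overlap was not counted for any pair of ages. A lack of overlap between ages thus does not set the members apart, here or below.

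At this step *Idi1* and *Insig1* were the members not called lower in WT mice, and in mutant mice *Insig1* alone was not called. Whether they differ from the other members was not tested. *Idi1* had values of 8.02 to 8.46 (median 8.07) in WT embryos and 8.02 to 8.26 (median 8.10) at 1 month, which overlap, with WT E14.5 replicates 5 and 6 above every mouse of 1 month. Its difference was −0.06 in WT (95% interval −0.26 to 0.13, adjusted p = 0.53) and −0.23 in mutant mice (−0.44 to −0.01, adjusted p = 0.046). The call in mutant mice was lost when mutant E14.5 replicate 5 (−0.18) or 1-month replicate 1 (−0.16) was left out. *Insig1*, the regulator, was the member that rose in WT, by 0.16 (0.03 to 0.29, adjusted p = 0.021), with 6 of 6 mice of 1 month above the embryonic mean. In mutant mice its difference was −0.05 (−0.17 to 0.07, adjusted p = 0.45). After quantile normalization these differences were 0.10 and −0.11, and the call passed from WT to mutant mice.

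**Figure D1:**
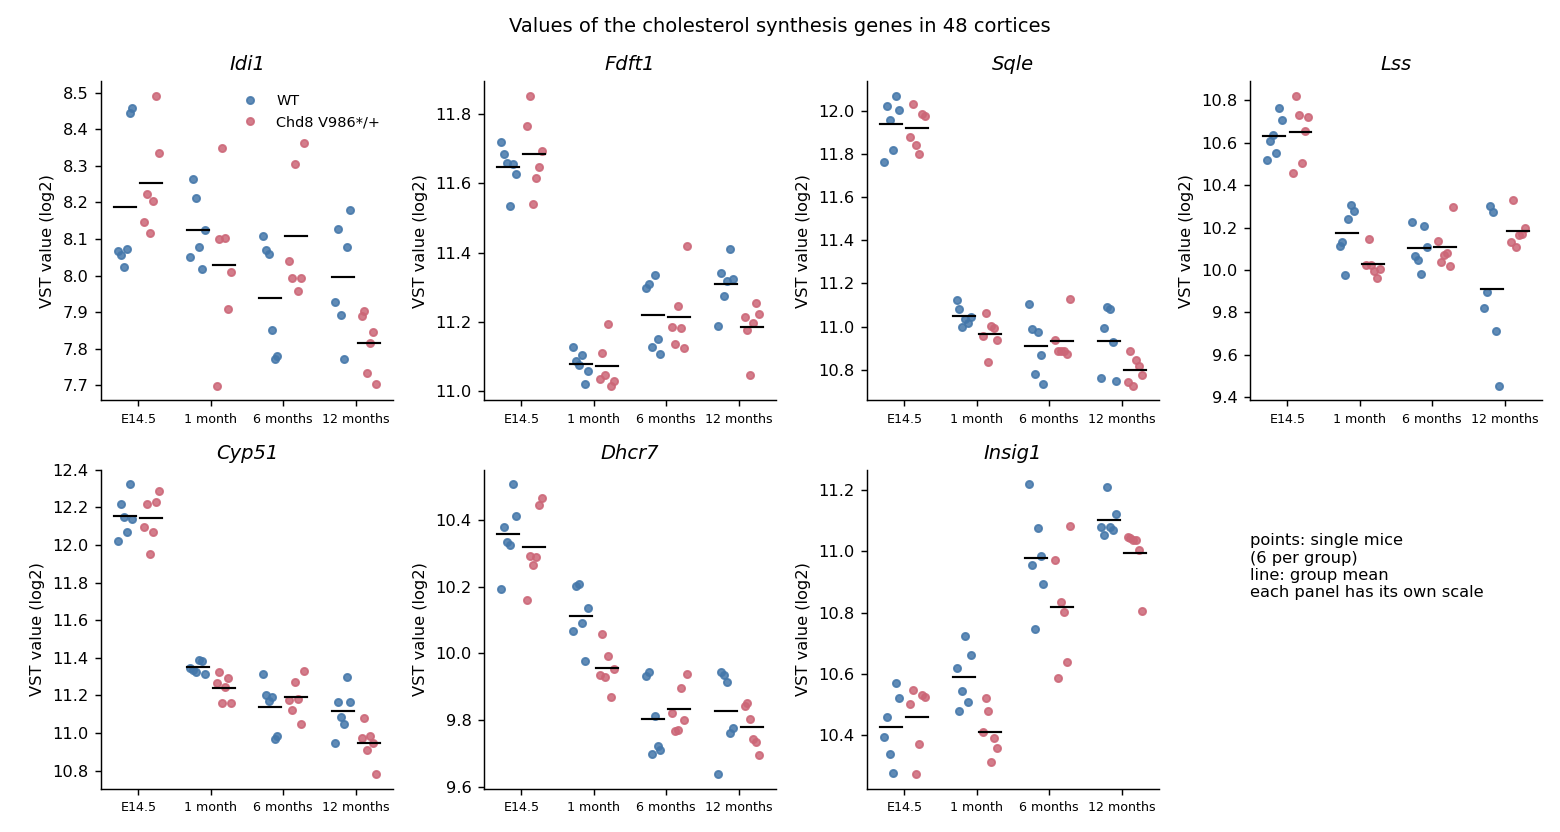
VST values (log2) of the 7 cholesterol synthesis genes in single mice by age, WT in blue and Chd8 V986*/+ in red, with 6 mice per group and a line at each group mean, each panel on its own scale. *Sqle*, *Cyp51*, *Fdft1* and *Lss* are higher in every embryo than in every mouse of 1 month of the same genotype, and *Lss* spreads widely in WT mice of 12 months, from 9.45 to 10.30. The share of all genes whose ages lie apart was not counted.

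From 1 to 6 months the members moved in both directions. In WT mice 5 of 7 were called, against 24.6% of 17255 genes, with *Sqle* (−0.14), *Cyp51* (−0.21) and *Dhcr7* (−0.31) lower, against 12.3% of all genes, and *Fdft1* (0.14) and *Insig1* (0.39) higher, against 12.3%. In mutant mice 3 of 7 were called, against 26.8% of 17208 genes, with *Dhcr7* (−0.12) lower, against 12.8%, and *Fdft1* (0.14) and *Insig1* (0.41) higher, against 14%. The call of *Sqle* in WT hung on single mice. It was lost without WT 1-month replicate 1, 2, 4, 5 or 6 or WT 6-month replicate 3, 5 or 6 (−0.15 to −0.11) and under 6 of 10 other settings of normalization, filter and model. That of *Dhcr7* in mutant mice was lost without mutant 1-month replicate 2 or 4 or mutant 6-month replicate 2 or 3 (−0.12 to −0.10), in a single fit of all 48 samples and at an adjusted p below 0.05, and that of *Fdft1* in mutant mice without the filter. *Idi1* in WT (−0.18, adjusted p = 0.11) was called without WT 1-month replicate 5 or WT 6-month replicate 1, 2 or 3 (−0.22 to −0.21) and with the set of replicates as a covariate.

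*Insig1* had the largest difference of the members at this step, in the same direction in both genotypes. Its values were 10.48 to 10.72 (median 10.58) at 1 month and 10.75 to 11.22 (median 10.97) at 6 months in WT, and 10.31 to 10.52 (median 10.40) and 10.59 to 11.08 (median 10.82) in mutant mice. Every mouse of 6 months was above every mouse of 1 month of its genotype. The rise was 0.39 ± 0.07 in WT and 0.41 ± 0.07 in mutant mice (adjusted p = 0.00061 and 0.00078). *Dhcr7*, whose enzyme makes cholesterol from its last precursor, had WT values of 9.98 to 10.21 (median 10.11) at 1 month and 9.70 to 9.95 (median 9.77) at 6 months, which did not overlap (adjusted p = 0.001).

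From 6 to 12 months, 0 of 7 members were called in WT mice by limma, against 0.00579% of 17283 genes, and 0 had an unadjusted p below 0.05. All 10 other settings and all 12 fits with a mouse left out also called 0. In mutant mice 2 members were called, against 3.43% of 17254 genes, both lower, against 2.36% of all genes. *Idi1* went from 7.96 to 8.36 (median 8.02) to 7.70 to 7.90 (median 7.83), with every mouse of 12 months below every mouse of 6 months. Its difference was −0.29 ± 0.08 (adjusted p = 0.077). *Cyp51* went from 11.05 to 11.33 (median 11.18) to 10.78 to 11.08 (median 10.96), which overlap, with a difference of −0.24 ± 0.05 (adjusted p = 0.03). The call of *Idi1* was lost without mutant 6-month replicate 3 or 6 or mutant 12-month replicate 2, 3, 4, 5 or 6 (−0.31 to −0.24), in a single fit of all 48 samples, without the filter, without the trend and at an adjusted p below 0.05. That of *Cyp51* was lost without the filter, and *Insig1* (0.18, adjusted p = 0.24) was called without mutant 6-month replicate 6 (0.23). Whether these age differences differ between the genotypes was tested only for the step from 6 to 12 months, as the difference of genotype effects given below, and not for the earlier steps. Neighbouring age comparisons share the mice of the age between them.

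**Figure D2:**
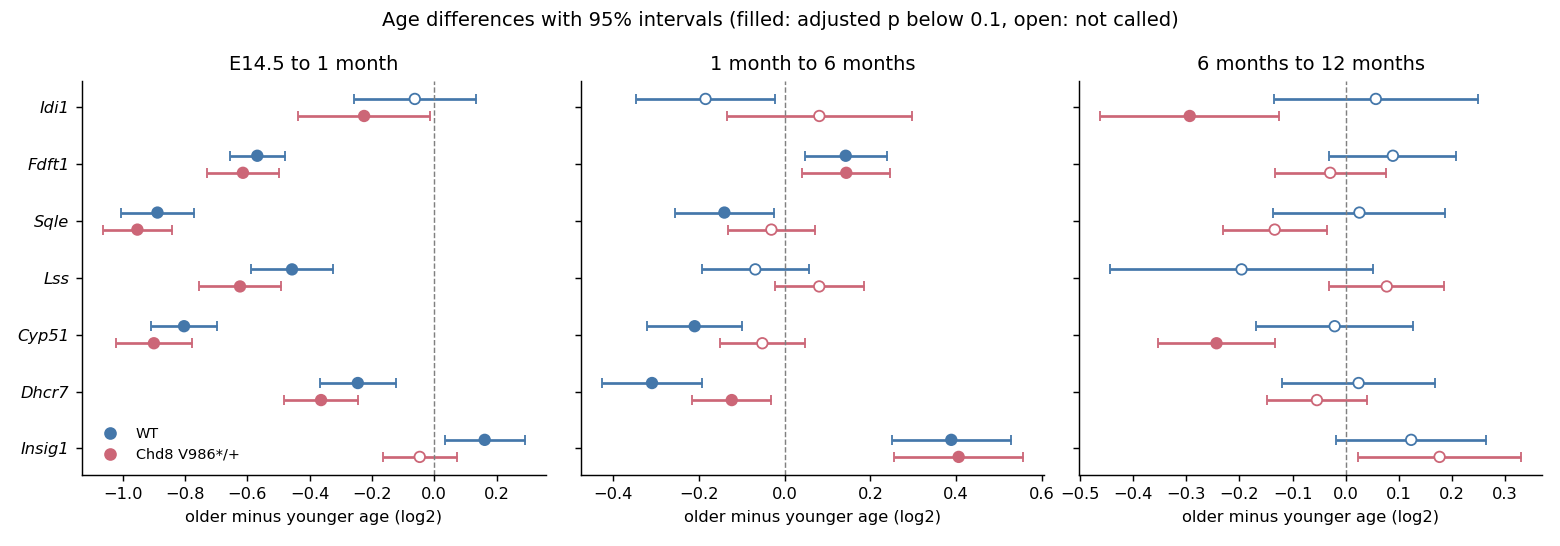
Difference between the older and the younger age (log2, x axis) for each gene, with 95% intervals from limma, WT in blue and Chd8 V986*/+ in red, 6 mice per age, filled where the adjusted p was below 0.1. *Sqle* and *Cyp51* have the largest falls from E14.5 to 1 month (−0.95 and −0.90 in mutant mice), and *Insig1* rises from 1 to 6 months in both genotypes (0.39 and 0.41).

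The other genes of sterol metabolism, in lists by role, were read at the same steps. Of 14 other enzymes of cholesterol synthesis, 13 were called from E14.5 to 1 month in WT, near the 85.7% of all genes, with 7 lower and 6 higher, against 42.3% and 43.4%, and a median of −0.20. *Lbr*, a sterol reductase of the nuclear membrane (−1.94), *Acat2*, which joins acetyl units (−1.91), and *Fdps*, which makes farnesyl diphosphate (−0.97), fell most, while *Ebp* (0.86), *Msmo1* (0.83) and *Sc5d* (0.79), enzymes of the steps after lanosterol, rose. Of 8 genes for storage and removal of cholesterol, 7 rose, among them *Cyp46a1* (4.69), which makes the hydroxylated form in which neurons release cholesterol. Of 15 genes of uptake and transport, 8 rose and 3 fell, with *Apoe* (4.35), the main lipoprotein of the brain, rising most. Of 14 genes of sterol sensing, 6 rose and 6 fell, of 10 genes of other isoprenoid branches 4 rose and 4 fell, and of 10 genes of fatty acid synthesis 5 rose and 4 fell.

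After the first month fewer of these genes were called. From 1 to 6 months in WT, 5 of the 14 other synthesis enzymes were called, against 24.6% of all genes, 4 lower, against 12.3%, such as *Tm7sf2* (−0.42) and *Ebp* (−0.32), and 1 higher, *Lbr* (0.20). The count was 3 in a single fit of all 48 samples, close to the share of all genes. *Srebf1*, which encodes a SREBP with many targets in fatty acid synthesis, rose by 0.66 ± 0.07 in WT and 0.62 ± 0.06 in mutant mice. From 6 to 12 months in WT 0 genes of these lists were called. In mutant mice at that step, in the lists other than the synthesis enzymes, 1 of 14 genes of sterol sensing was called, *Srebf1* (0.26, adjusted p = 0.041), and 1 of 8 of storage and removal, *Cyp27a1* (0.40, adjusted p = 0.09), both higher, as were 185 of 17254 genes. Both calls were lost in the single fit of all 48 samples, without the filter and without the trend, and that of *Cyp27a1* also with quantile normalization and at an adjusted p below 0.05. With quantile normalization the count of sterol sensing rose to 2. The call of *Srebf1* was lost without mutant 6-month replicate 3 (0.25) or 4 (0.23), and that of *Cyp27a1* without any mouse other than mutant 6-month replicate 1 or mutant 12-month replicate 6 (0.30 to 0.43).

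Markers of other cells moved at the same step as the members. From E14.5 to 1 month in WT, 12 of 12 markers of oligodendrocytes and myelin rose, with a median of 5.57, and their summed level (log2 of the sum) went from 10.90 to 11.16 over the 6 embryos to 17.65 to 18.07. *Mbp*, a myelin protein, was the most abundant of them, and 1 of the 12, *Opalin*, was within 0.5 of the floor in mutant embryos. Of the cortical progenitor markers 8 of 8 fell (median −2.22), from a summed level of 15.33 to 16.02 to one of 12.83 to 13.02, with 0 of them near the floor. Also called in WT were 5 of 5 markers of oligodendrocyte precursors, 9 of 9 of astrocytes, 9 of 9 of cortical neurons, 6 of 6 of microglia, 5 of 5 of endothelium, 5 of 5 of red blood cells, 4 of 4 of choroid plexus, 5 of 5 of striatum, 6 of 8 of midbrain and hindbrain and 4 of 4 of meninges, beside the 85.7% of all genes called at this step. From 1 to 6 months 9 of the 12 oligodendrocyte and myelin markers fell in WT, against 12.3% of all genes, and 10 of 12 in mutant mice, against 12.8%. From 6 to 12 months in mutant mice, where *Idi1* and *Cyp51* fell, 3 of these 12 markers rose (median 0.15) and 1 of 5 of oligodendrocyte precursors, beside 185 of 17254 genes. The count of 3 became 1 without mutant 6-month replicate 2, 3 or 4 or mutant 12-month replicate 3, 4 or 5, and that of the precursors 0 without mutant 6-month replicate 2, 3 or 4 or mutant 12-month replicate 1, 2 or 3. In the single fit of all 48 samples, without the trend and at an adjusted p below 0.05 these counts were 1 and 0, and without the filter both were 0. The part of these cells in the members' age differences was not tested.

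The comparison of genotypes asked whether a missing copy of *Chd8* shifts the pathway at each age. No member was called at any age. The members lay lower in mutant mice at 1 month, all 7 of them, and at 12 months, 6 of 7, with *Lss* higher. They lay on both sides of WT at E14.5 and 6 months. By limma 0 of 7 were called in embryos, against 0.00593% of 16877 genes (1 gene), and 0 of 7 in mice of 1 month, against 0.139% of 17221. The counts for 6 and 12 months were also 0, against 0.0927% of 17256 and 0.0463% of 17288 genes. The other 10 settings and the fits with a mouse left out also called 0, with the exception of a single fit of all 48 samples, which called 1 at 12 months, *Lss*, among 520 of all genes. With so few calls among all genes, these counts do not separate the members from the rest.

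The members with an unadjusted p below 0.05 were counted at each age, which does not test a difference between ages. The members varied together between mice, with a median r of 0.45 over 21 pairs, as described further on. Neither these counts nor those above therefore rest on 7 separate observations. At E14.5 0 of 7 members passed, against 2.35% of all genes in the lower and 2.21% in the higher direction. At 1 month 5 of 7 passed, all lower in mutant mice, against 5.07% of all genes lower and 3.73% higher. At 6 months 0 passed, against 4.05% lower and 3.54% higher. At 12 months 3 passed in the lower direction (*Idi1*, *Fdft1* and *Cyp51*), against 5.39% of all genes, and 1 in the higher (*Lss*), against 6.18%. The median difference over the members was 0.02, −0.11, 0.02 and −0.12 at the 4 ages in order, against 0.0010, −0.0029, −0.00088 and 0.0046 over all genes, of which 49.6%, 51.4%, 50.4% and 48.6% lay lower in mutant mice.

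**Figure D3:**
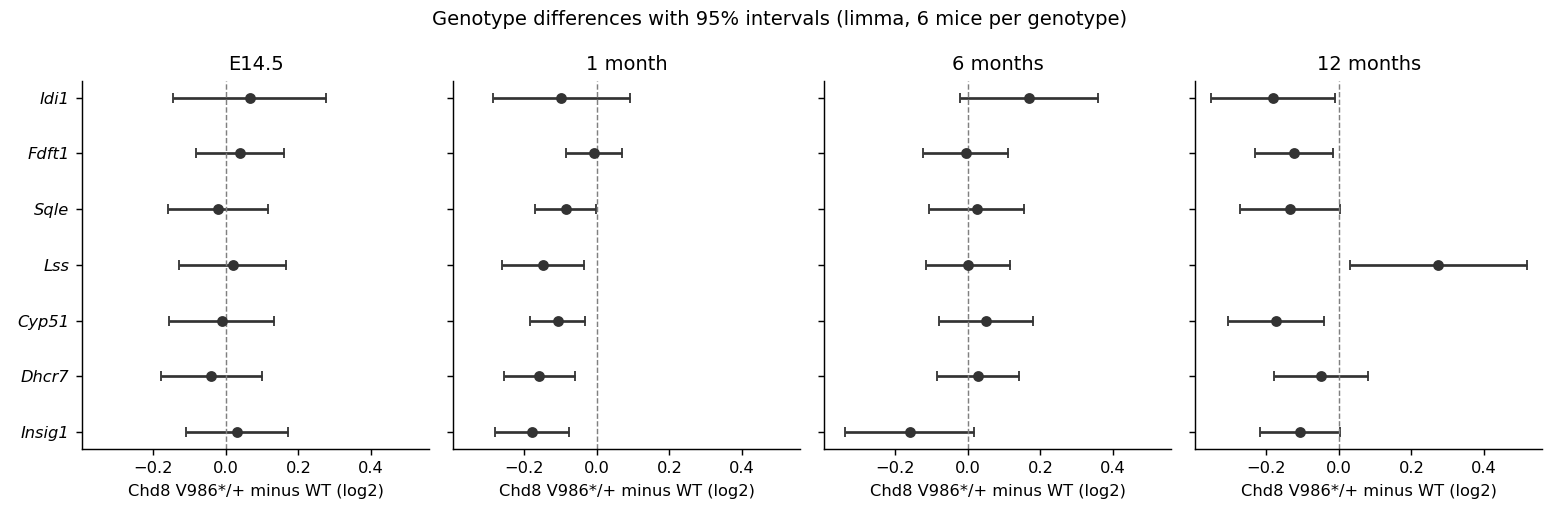
Chd8 V986*/+ minus WT (log2, x axis) for each gene at each age, points with 95% intervals from limma, 6 mice per genotype. All 7 points lie below 0 at 1 month, and at 12 months *Lss* (0.27) lies above 0 and the other 6 below.

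At 1 month *Insig1* showed the largest of these differences. Its values were 10.48 to 10.72 (median 10.58) in WT and 10.31 to 10.52 (median 10.40) in mutant mice. The genotypes overlapped, with 5 of 6 mutant mice below every WT mouse. The difference was −0.18 (95% interval −0.28 to −0.08, adjusted p = 0.28). *Dhcr7* lay between 9.98 and 10.21 (median 10.11) in WT and between 9.87 and 10.06 (median 9.94) in mutant mice, where 4 of 6 were below every WT mouse, with a difference of −0.16 (−0.26 to −0.06, adjusted p = 0.33). *Lss*, the cyclase that forms lanosterol, differed by −0.15 (−0.26 to −0.03, adjusted p = 0.44), *Cyp51* by −0.11 (−0.18 to −0.03, adjusted p = 0.40) and *Sqle* by −0.09 (−0.17 to −0.0014, adjusted p = 0.56). In *Lss*, *Cyp51*, *Dhcr7* and *Insig1*, 6 of 6 mutant mice were below the WT mean. The share of all genes with 6 of 6 mice on 1 side of a mean was not determined in any comparison. Such counts therefore describe single genes and do not set them apart, here or below. *Idi1* (−0.10, −0.29 to 0.09) and *Fdft1* (−0.01, −0.09 to 0.07) had intervals that span 0, and *Fdft1* changed sign when samples were centred on their median (0.0044). With a mouse left out, the difference of *Idi1* ranged from −0.16 to −0.03.

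At 12 months *Insig1* was the 1 member whose genotypes did not overlap, against 0.868% of all genes. Its WT values were 11.05 to 11.21 (median 11.08) and its mutant values 10.81 to 11.05 (median 11.04), so the gap between the lowest WT and the highest mutant mouse was small, and mutant replicate 6 lay far below the other mutant mice. The difference was −0.11 (−0.22 to 0.0047, adjusted p = 0.45), and −0.07 without mutant replicate 6. At each of the younger ages 0 of 7 members were free of overlap, against 0.261%, 0.825% and 0.527% of all genes. *Idi1* at 12 months lay between 7.77 and 8.18 (median 8.003) in WT and between 7.70 and 7.90 (median 7.83) in mutant mice, a difference of −0.18 (−0.35 to −0.01, adjusted p = 0.40). *Cyp51* differed by −0.17 (−0.30 to −0.04, adjusted p = 0.33), *Fdft1*, the enzyme that joins farnesyl units into squalene, by −0.12 (−0.23 to −0.02, adjusted p = 0.37) and *Sqle* by −0.13 (−0.27 to 0.0029, adjusted p = 0.44). In each of these 4 genes 6 of 6 mutant mice were below the WT mean, a count for which the share of all genes is not known. For *Dhcr7* the difference was −0.05 (−0.18 to 0.08).

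*Lss* ran the other way at 12 months, and its WT mice spread widely. The WT values were 9.45 to 10.30 (median 9.86) and the mutant values 10.11 to 10.33 (median 10.17). WT replicates 3 and 4 lay within the mutant range, at 10.30 and 10.27, while WT replicates 1, 2, 5 and 6 lay below every mutant mouse. The standard deviation was 0.33 in WT, larger than that of 82.7% of genes in that group, and 0.08 in mutant mice. The difference was 0.27 (0.03 to 0.52, adjusted p = 0.37), and it ranged from 0.18 to 0.35 when a mouse was left out.

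At E14.5 the members' genotype differences ranged from −0.04 (*Dhcr7*) to 0.07 (*Idi1*), with a median size of 0.03 against 0.07 over all genes. With a mouse left out, the difference of *Dhcr7* ranged from −0.07 to −0.008 and that of *Idi1* from 0.02 to 0.12. At 6 months the extremes were *Insig1* at −0.16 (−0.34 to 0.02, adjusted p = 0.71) and *Idi1* at 0.17 (−0.02 to 0.36, adjusted p = 0.72), and the other 5 lay between −0.01 and 0.05. The median size at 6 months was 0.03 against 0.06 over all genes, while at 1 and 12 months it was 0.11 and 0.13 against 0.06 and 0.09. The intervals at E14.5 reach 0.28 in *Idi1* and −0.18 in *Dhcr7*, so these values do not show that the genotypes are alike.

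**Figure D4:**
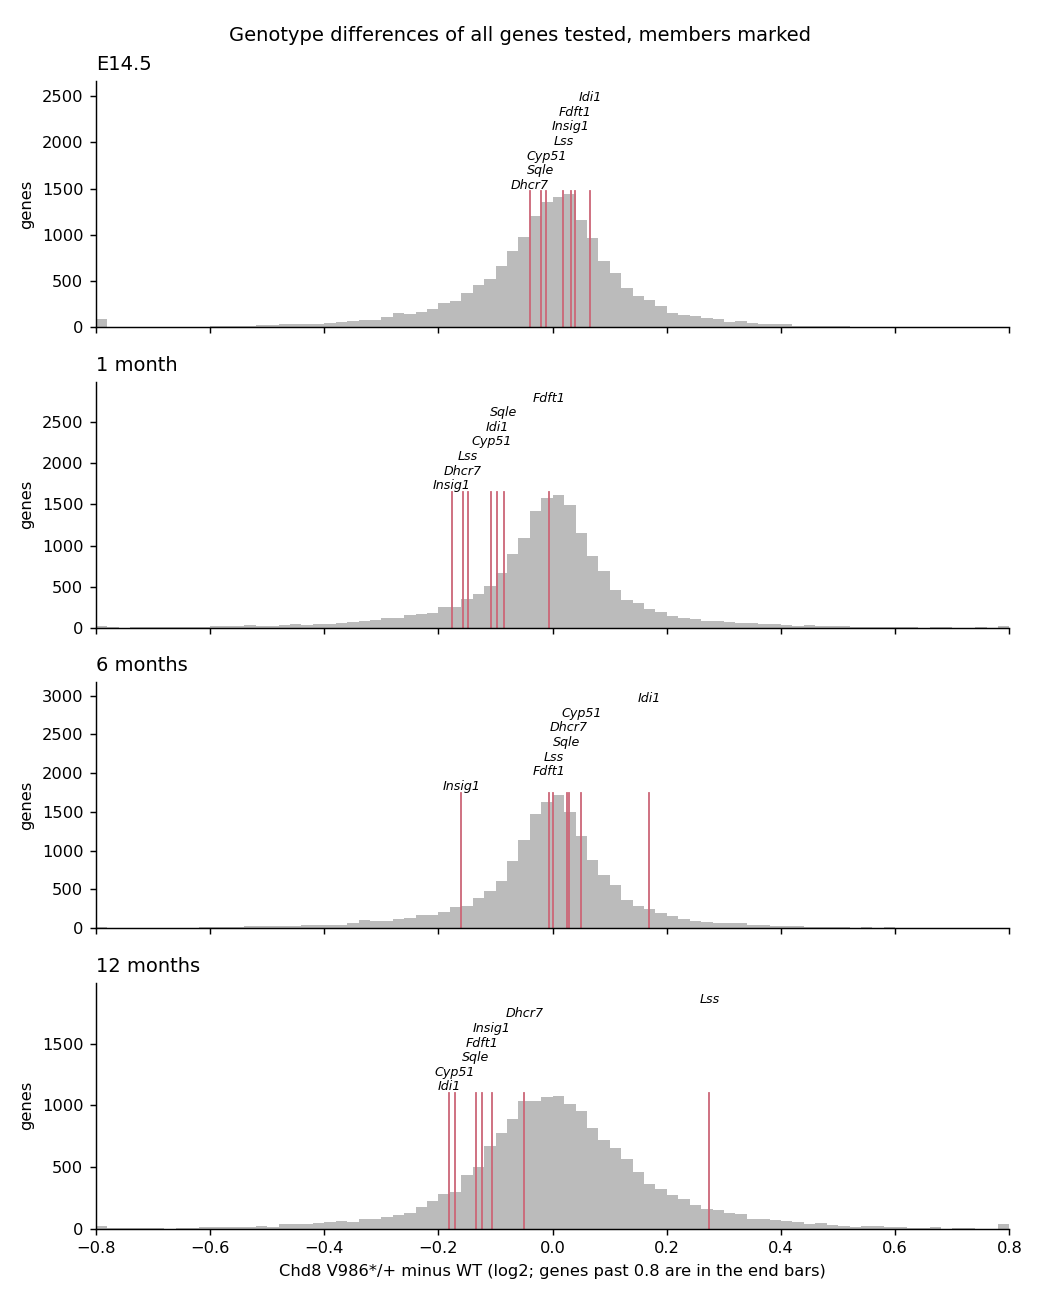
Histograms of the genotype difference (Chd8 V986*/+ minus WT, log2, x axis) over all genes tested at each age (number of genes, y axis), with a red line for each of the 7 members. At 1 month the members lie from −0.18 to −0.01, on the lower side, and at E14.5 they lie within the centre.

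Tests of the difference itself compared the genotype effect at 12 months with that at each younger age, in a single limma fit of all 48 mice. They called 0 of 7 members against E14.5 (0.0635% of 17311 genes called), 0 against 1 month (0.00578%) and 0 against 6 months (0.0578%), and the 9 other settings also called 0. At an unadjusted p below 0.05 there were 2 members against E14.5 (*Fdft1* and *Lss*, 11.5% of all genes), 1 against 1 month (*Lss*, 11.1%) and 3 against 6 months (*Idi1*, *Cyp51* and *Lss*, 8.68%). The largest was the change of *Lss* from 1 to 12 months, 0.42 (95% interval 0.18 to 0.66, adjusted p = 0.17). This fit takes a single variance per gene over all groups. The standard deviation of *Lss* ranged from 0.06 (mutant, 1 month) to 0.33 (WT, 12 months), so its interval may be too narrow. *Idi1* gave −0.35 against 6 months (−0.61 to −0.09, adjusted p = 0.42). These comparisons share the mice of 12 months and so are not independent.

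Most other enzymes of the chain lay on the same side as the members at 1 and 12 months. They were measured in the same mice, so this is not a separate observation. Of the 14, 12 were lower in mutant mice at 1 month (median −0.06) and 13 at 12 months (median −0.08), against 7 each at E14.5 and 6 months. By limma 0 were called at any age, and 0, 3, 0 and 6 had an unadjusted p below 0.05 at the 4 ages in order, as did 769 of 16877, 1515 of 17221, 1310 of 17256 and 2000 of 17288 of all genes. The single fit of all 48 samples called 2 at 12 months, among 520 of all genes. At 12 months *Hsd17b7*, a reductase of the steps after lanosterol, differed by −0.21 (−0.37 to −0.05, adjusted p = 0.33). At 1 month *Pmvk*, the phosphomevalonate kinase, had the largest difference (−0.16, −0.26 to −0.06, adjusted p = 0.34). In both, 6 of 6 mutant mice were below the WT mean.

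The lists on other steps of sterol metabolism had 0 genes called by limma in any genotype comparison. At 1 month 12 of 15 genes of uptake and transport were lower (median −0.09), and 5 of the 15 passed an unadjusted p of 0.05, 4 of them lower, against 5.07% of all genes, and 1 higher (*Scarb1*, 0.12), against 3.73%. At 12 months 6 of these 15 were lower (median 0.04) and 2 passed. Of 14 genes of sterol sensing, 0, 0, 0 and 1 passed at the 4 ages in order, of 8 genes of storage and removal (7 tested at 6 months) 0, 1, 2 and 2, of 10 genes of other isoprenoid branches 0, 1, 0 and 0, and of 10 genes of fatty acid synthesis 0, 2, 1 and 0, beside the numbers of all genes given in the paragraph above. The single fit of all 48 samples called 1 gene of sterol sensing at 12 months, again among 520. *Ch25h*, which hydroxylates cholesterol, had the largest difference among them (−0.82 at 12 months, adjusted p = 0.33), with 6 of 6 mutant mice below the WT mean. Its values were low and spread widely, with a mean of 4.74 (standard deviation 0.81) in WT and 3.92 (0.38) in mutant mice.

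Markers of other cells also had 0 calls by limma in the genotype comparisons, with some lists shifted. At 6 months all 12 oligodendrocyte and myelin markers were lower in mutant mice (median −0.23), 9 of them at an unadjusted p below 0.05, against 4.05% of all genes. Their summed level was 17.05 to 17.24 in WT and 16.79 to 17.10 in mutant mice, and 0 were near the floor. The set of replicates as a covariate called 1 of them, and so did leaving out mutant 6-month replicate 3. At E14.5 a single fit of all 48 samples called 1 marker of this list. At 1 month, where all 7 members were lower, 7 of these 12 markers were lower (median −0.02) and 0 passed, and at 12 months 6 were lower (median −0.01) and 4 passed, beside 2000 of 17288 genes. At 12 months, leaving out WT replicate 3 gave 2 calls.

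At E14.5 all 8 midbrain and hindbrain markers were lower in mutant mice, with a median of −1.35, 4 of them at an unadjusted p below 0.05, against 2.35% of all genes, and a single fit of all 48 samples called 1. Their summed level spread from 7.26 to 11.64 over the WT embryos and from 7.58 to 10.04 over the mutant embryos, with *En2* the most abundant, and *Hoxa2*, *Hoxb2* and *Hoxb3* were within 0.5 of the floor in the mutant group. The members differed little between the genotypes at that age, as given above. At 6 months 9 of 9 astrocyte markers were higher in mutant mice (median 0.13) and 3 passed, against 3.54% of all genes. The part of these cells and regions in the members' values was not tested.

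Between mice of the same group the members varied little in most groups, and they varied together. Of their 56 standard deviations within groups (7 genes in 8 groups), 47 were below the median of all genes of the group, with a range from 0.03 to 0.33. In WT mice of 6 months only 3 of 7 were below it, with a median over the members of 0.136 against 0.128 over all genes. The correlation of each mouse's deviations from its group mean was above 0 for 20 of 21 pairs of members over the 48 mice, with a median Pearson r of 0.45. It was highest for *Sqle* and *Dhcr7* (0.68) and lowest for *Idi1* and *Lss* (−0.07). Against the mean of the other 6 members, *Sqle* followed most closely (r = 0.80, Spearman rho = 0.77) and *Lss* least (r = 0.32, rho = 0.38). Without the 2 mice farthest from the median these were 0.75 and 0.24. The mice share a library preparation and the authors' normalization within the table, so these values are a description.

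A few mice were high in most members at once. Mutant 6-month replicate 6 had the highest value of its group in all 7 members, 0.19 above the group means on average. WT 6-month replicate 1 was the highest in 5 of 7 (0.16 on average), and WT E14.5 replicate 5 (0.14), mutant 1-month replicate 2 (0.09) and mutant 12-month replicate 2 (0.08) were each the highest in 5. WT E14.5 replicate 1, mutant E14.5 replicate 3, mutant 6-month replicate 5 and mutant 12-month replicate 6 were each the lowest in 4. The values of these mice enter every comparison above.

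**Figure D5:**
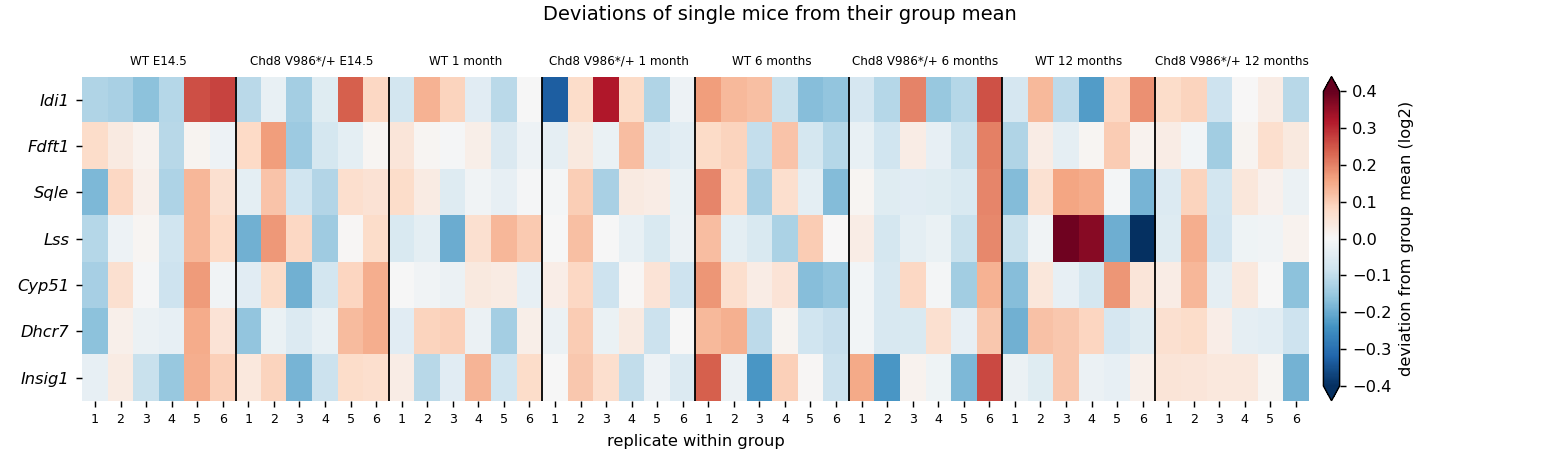
Deviation of each mouse from the mean of its group (log2, color), for the 7 members (rows) in the 48 mice (columns, 6 replicates per group). The column of mutant 6-month replicate 6 is above its group mean in every member, and the WT mice of 12 months differ most in *Lss*.

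Across the 8 groups the order of the means differed between the enzymes and the regulator. *Sqle*, *Cyp51* and *Dhcr7* were highest in WT embryos and lowest in mutant mice of 12 months, apart by 1.14, 1.21 and 0.58. *Fdft1* went from mutant embryos to mutant mice of 1 month (0.61), *Idi1* from mutant embryos to mutant mice of 12 months (0.44) and *Lss* from mutant embryos to WT mice of 12 months (0.74). *Insig1* was highest in WT mice of 12 months and lowest in mutant mice of 1 month (0.69). Most neighbours in these orders lay closer than their spread. Of 7 neighbouring pairs of groups, the means differed by more than the larger standard deviation in 2 for *Sqle*, 3 for *Cyp51*, 2 for *Fdft1*, 1 for *Lss*, 3 for *Dhcr7*, 3 for *Insig1* and 0 for *Idi1*.

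Among the genes most like the members in their deviations between mice, of 17304 genes compared over 48 mice, were *Hsd17b7* (r = 0.74, rho = 0.77), *Stard4* (r = 0.72, rho = 0.76) and *Rlf* (r = 0.70, rho = 0.75). Without the 2 mice farthest from the median the r values were 0.73, 0.70 and 0.66. By the 8 group means the most alike were *Hmces* (r = 0.998), *Suv39h1* (0.995), *Rhd* (0.994), *Tada1* (0.992) and *Psmd3* (0.992), which were chosen out of all genes over only 8 points. Without the 2 groups farthest from the median their r was 0.81 to 0.95.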

How the data were processed

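The authors filtered and trimmed the reads, aligned them to mm9 with STAR 2.5.2b, quantified transcripts with Salmon 0.11.3 and processed them with DESeq2 1.22.2 in a model with a batch term. The values deposited by the authors are VST-normalized expression on a log2 scale, a table of 24444 genes and 48 samples, with no counts and no depth of single genes. In each gene the mean over replicates 1 to 3 matched that over replicates 4 to 6 with a largest difference of 3.20e-14, which is how a table looks after a batch term has been taken out.

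Each comparison was fitted with limma 3.58.1 in R 4.3.3 with an intensity trend, two-sided, on the 12 samples of its groups, and the differences of genotype effect on all 48. Genes were tested where their mean was at least 0.5 above the floor of 2.14. A gene was called at a Benjamini-Hochberg adjusted p below 0.1, the threshold of the study. Intervals are 95%. The fitting was tested on simulated data. Tables and plots were made with Python 3.11.15, pandas 2.3.3, numpy 2.4.6 and matplotlib 3.10.9.

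Members and lists were chosen with earlier results of these data known. Of each list of pathway genes, the text names called genes, at most 3 per direction with the largest change, or where 0 were called the 2 with the largest difference, in the genotype and age comparisons. It also names the 5 genes most like the mean of the standardized members by deviations and the 5 by group means, and the marker of each list with the highest mean. Some genes that these rules select, and the count of other synthesis enzymes in mutant mice from 6 to 12 months, are not reported here. Alternatives tried were a replicate block, the set of replicates as a covariate, a single fit of all 48 samples, no filter, a filter at 1.5 above the floor, quantile normalization, robust variance estimates, no trend, an adjusted p below 0.05, centring each sample on its median, and each sample left out in turn. Positions are those of mm9, and promoter windows those of GRCm38.p6.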

Additional observations from a re-analysis of the deposited data

Results flagged for a closer look

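In 6 of 64 groups of 6 mice (8 genes in 8 groups), a single mouse lay so far from the others that its gap, divided by the range of the group, was above the critical value of Dixon's test. Chance flags about 1 in 20 groups. *Chd8* was far below the rest in mutant E14.5 replicate 1 (11.60) and in WT 12-month replicate 6 (11.36), and above the rest in mutant 12-month replicate 6 (11.17). *Sqle* was above the rest in mutant 6-month replicate 6 (11.13), the mouse that was highest in all 7 members. *Lss* was above the rest in mutant 1-month replicate 2 (10.15), and *Insig1* below the rest in mutant 12-month replicate 6 (10.81). What set these mice apart was not tested.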

How the results depend on the processing

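Of the 127 counts of members called under other settings, 121 were within 1.5 times the reported count, as were 114 of 120 with a mouse left out. A count of 0 against a reported 0 was taken as within it, and the reported count was 0 in many comparisons. These totals thus say little about the counts above 0. A single fit of all 48 samples called 1 member at 12 months between the genotypes, against 0. In mutant mice from 6 to 12 months the count of 2 became 1 with the replicate block, in the fit of all 48 samples, without a trend and at an adjusted p below 0.05, and 0 without a filter. With a mouse left out that count ranged from 1 to 2, and the counts from 1 to 6 months from 4 to 6 in WT and from 2 to 3 in mutant mice. The median over the members moved by less than the spread of the mice. With a mouse left out it fell on both sides of 0 between the genotypes at E14.5 (−0.016 to 0.048) and 6 months (−0.015 to 0.054), and ranged from 0.015 to 0.099 in mutant mice from 1 to 6 months.

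Signs changed only for differences near 0 that were called in no fit. Quantile normalization gave 0.0011 for *Cyp51* at E14.5 between the genotypes, 0.011 for *Cyp51* in WT from 6 to 12 months and 0.012 for *Fdft1* in mutant mice from 6 to 12 months. Centring on the median gave 0.0044 for *Fdft1* at 1 month and −0.0021 for *Lss* at 6 months. With a mouse left out, the genotype differences ranged at E14.5 from −0.040 to 0.027 for *Cyp51*, −0.016 to 0.057 for *Lss*, −0.056 to 0.0054 for *Sqle* and −0.11 to 0.022 for *Acaca*, at 1 month from −0.032 to 0.0039 for *Fdft1*, and at 6 months from −0.046 to 0.017 for *Fdft1*, −0.037 to 0.026 for *Lss* and −0.015 to 0.063 for *Sqle*. The age differences from 6 to 12 months ranged in WT from −0.056 to 0.014 for *Cyp51* and −0.0089 to 0.065 for *Sqle*, and in mutant mice from −0.047 to 0.011 for *Fdft1*. The cause was not tested.

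With the replicate number as a block, *Idi1* was called in WT from 1 to 6 months and not in mutant mice from 6 to 12 months, where *Cyp27a1* was not called either, 2 oligodendrocyte and myelin markers were called at 6 months between the genotypes, and no other member's call changed. The number of all genes called moved more. The block gave 2, 13, 30 and 2 in the genotype comparisons against 1, 24, 16 and 8, and the fit of all 48 samples 93, 37, 16 and 520. From 6 to 12 months in mutant mice it was 100 to 654 against 592, in WT 0 to 7 against 1. The tests between ages gave 4 to 254 against E14.5, 0 to 141 against 1 month and 6 to 29 against 6 months, where the block gave the highest count, against 11, 1 and 10. With a mouse left out the genotype comparisons called 0 to 2, 3 to 32, 5 to 21 and 2 to 251 genes, and mutant mice from 6 to 12 months 209 to 814.

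The replicate numbers were checked for pairing. Same-numbered WT and mutant mice deviated together at E14.5 with a mean r of 0.23, against −0.04 for other numbers, over 0.1 in 4 of 6 pairs, and 4 of 6 WT mice resembled their own number most. At 1, 6 and 12 months the mean r was 0.02, 0.05 and −0.03. At E14.5 this hints at pairing in the data, though not in every pair, so the block was kept as an alternative and not as the design. At E14.5 it called 0 members and kept the call of *Chd8*.

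The table holds no counts, so what depth limits cannot be read from it, and 6 mice per group set the precision.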
